A study of Rattus norvegicus with 120 samples.

Results

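The genes described here are 6 genes of stratified surface epithelium measured in rat eyes: the corneal enzymes Aldh3a1 and Tkt, the 14-3-3 protein gene Sfn, the junction genes Perp and Dsp, and the transcription factor gene Tp63. They were taken by symbol, and every probe set annotated to 1 of the 6 symbols alone was used, which gave 9 probe sets of 31042 that were not array controls, and 6 of 14217 genes with a probe set of their own. The 120 samples were eyes of 12-week-old male rats from the F2 generation of an SR/JrHsd by SHRSP intercross, SHRSP being a hypertensive strain that is prone to stroke and both strains being inbred. Each animal therefore carried its own mixture of both parental genomes, and the series was made to map loci that set expression levels. RNA of both eyes of an animal was joined and hybridised to 1 Affymetrix array with no repeat array. The labels put all animals in 1 group, name no treatment and no parental or control animals, and genotypes were not used here.

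The surface of the cornea is a stratified epithelium that is kept clear and moist while it withstands abrasion and light. Its cells hold very large amounts of a few soluble enzymes, the corneal crystallins, of which the aldehyde dehydrogenase Aldh3a1 and the transketolase Tkt are the best known in rodents. Aldh3a1 oxidises toxic aldehydes that arise from lipid peroxidation, and Tkt links the pentose phosphate pathway to glycolysis. Cells of the epithelium are held together by desmosomes, in which desmoplakin (Dsp) ties the keratin filaments to the plaque and the small membrane protein Perp stabilises the junction. Tp63 encodes p63, the transcription factor that basal cells of stratified epithelia need, and Perp is a known p63 target in mouse epithelium. Sfn encodes 14-3-3 sigma, the epithelial member of a family of adaptor proteins and a known p53 target.

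Values are RMA signals on the log2 scale as the authors deposited them. The titles of the samples hold an S code (10 codes of 11 to 13 arrays) and an L code (22 codes of 2 to 11 arrays), and the labels explain neither. Except where a sentence says that they were kept, S code means were subtracted from every probe set, and a correlation is Pearson's r over the 120 animals after that subtraction. Array medians lay between 5.77 and 5.95 before this step. The array of animal 63 was least like the rest, with a median correlation of 0.937 with the other arrays, followed by animal 15 with 0.970, against a median over arrays of 0.989. These animals were also extreme for several of the 6 genes, so results that rest on them are given with and without them. As a check of the tissue, 8 markers of corneal epithelium had mean signals of 7.79 to 13.2, 8 lens markers 10.96 to 14.1 and 5 rod markers 11.5 to 13.3. Of 8 eyelid skin markers, 3 passed the filter on low values with means of 4.77 to 7.13, 2 lay below it and 3 were not analysed here. In such bulk samples, fewer cells of a type and less RNA per cell cannot be told apart.

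Among the corneal enzymes, the single probe set of Aldh3a1 (1368130_at, chromosome 10) had a lowest value of 12.88, a median of 13.19 and a highest value of 13.4. After removal of S code means its SD was 0.072 and the highest animal was 1.32-fold above the lowest. Animal 63 had the lowest adjusted value. Tkt (1386859_at, chromosome 16) had a lowest value of 10.81, a median of 11.49 and a highest value of 11.75. The lower tail was longer than the upper, and animal 15 was lowest, 0.642 below the mean of its S code, followed by animal 63 at 0.424 below and animal 92 at 0.388 below. The SD of Tkt was 0.123 and its range 1.81-fold.

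Sfn (1374806_at, chromosome 5) had a lowest value of 9.82, a median of 10.36 and a highest value of 10.82. Its SD of 0.169 was the largest among the highest-mean probe sets of the 6 genes, and 85.3% of the 695 tested probe sets with a mean within 0.5 of that of Sfn had a smaller SD. Neither animal 63 nor animal 15 was its lowest animal, which was animal 92 at 9.82.

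Perp was read by a pair of probe sets on chromosome 1. The first (1372423_at) had a lowest value of 10.62, a median of 11.15 and a highest value of 11.45, with an SD of 0.113. The second (1389177_at) had a lowest value of 10.51, a median of 10.98 and a highest value of 11.72, with an SD of 0.171. Both had their highest value in animal 77, and they agreed only in part over the animals, with r of 0.42 and a Spearman rho of 0.34. Both values of animal 77 stood above those of every other animal after removal of S code means.

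Dsp (1388506_at, chromosome 17) had a lowest value of 11.41 in animal 63, a median of 11.87 and a highest value of 12.14 in animal 77. Its SD of 0.088 was close to the median of 0.088 over the 181 tested probe sets with a mean within 0.5 of its own. A second Dsp probe set (1392258_at) had a low signal, with a lowest value of 4.29 and a median of 4.70, and a highest value of 6.14 in animal 63, the animal that was lowest for the first. The r of this pair was -0.38 and the rho -0.16, and without animals 63 and 15 the range of the second probe set was 1.68-fold in place of 3.10-fold.

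Tp63 (1369108_at, chromosome 11) had a lowest value of 7.54 in animal 63, a median of 8.16 and a highest value of 8.76 in animal 77. Those values were 0.558 below and 0.588 above the means of their S codes, and the SD over all animals was 0.158. A second Tp63 probe set (1371107_a_at) had a mean of 4.26, just under the filter at 4.28, and was unrelated to the first over the animals, with r of 0.01 and rho of -0.05. It was therefore not tested, so that 8 of the 9 probe sets passed the filter. Of these, the main Tp63 probe set and the second Dsp probe set had a range of 2-fold or more over the animals, 2 of 8, against 53.6% of all 23326 probe sets tested.

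**Figure D1:**
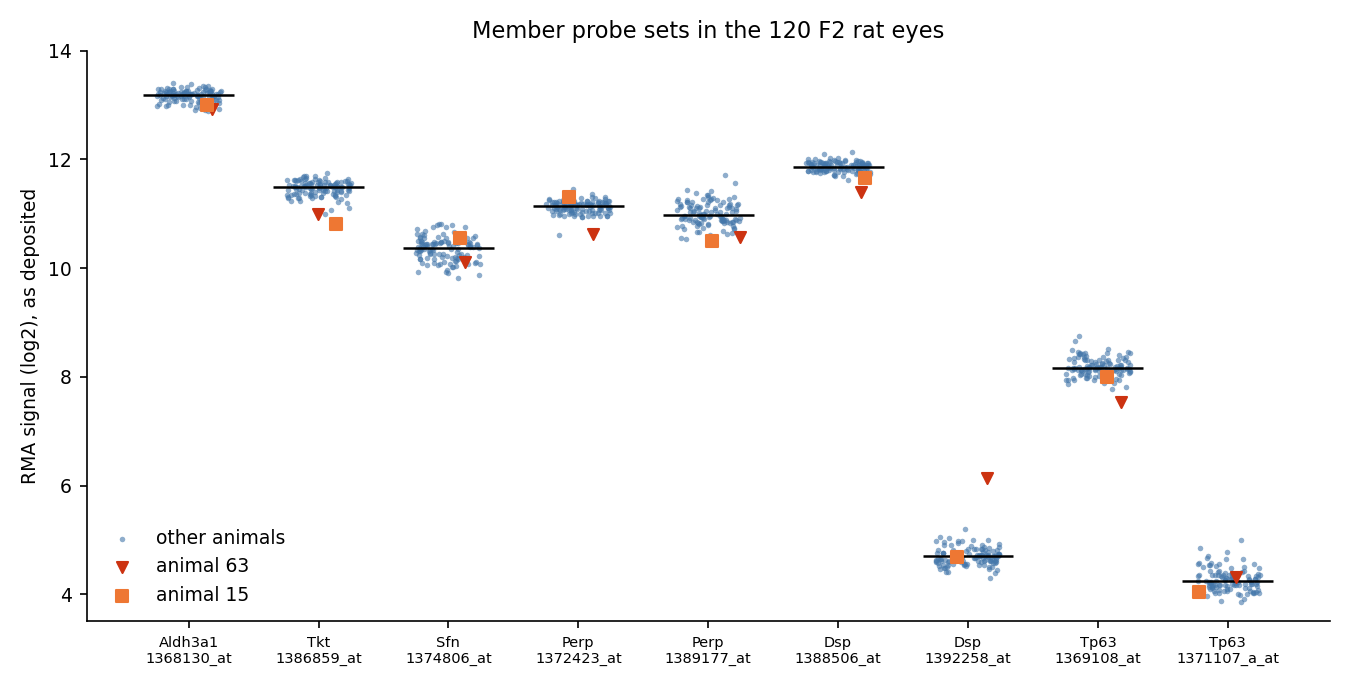
Deposited RMA signal (log2, vertical axis) of each of the 9 probe sets in the 120 animals, with bars at the medians and animals 63 and 15 marked. Animal 63 lies lowest for Dsp 1388506_at at 11.41 and for Tp63 1369108_at at 7.54, and highest for Dsp 1392258_at at 6.14.

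RefSeq promoter sequences of the GRCr8 build, from 250 bases before to 50 after the gene start, matched 5 of the 6 genes. They are shown for the 3 in which matches to a motif of AP-1 or to a GC box were found, since AP-1 and Sp-type factors are known regulators of epithelial genes. Capitals mark matches, on either strand, to TGANTCA (AP-1) or GGGCGG (GC box). Sfn lies on the minus strand of chromosome 5 (chr5:151111805-151112104), Perp on the plus strand of chromosome 1 (chr1:15361534-15361833) and Dsp on the minus strand of chromosome 17 (chr17:26877072-26877371).
Sfn: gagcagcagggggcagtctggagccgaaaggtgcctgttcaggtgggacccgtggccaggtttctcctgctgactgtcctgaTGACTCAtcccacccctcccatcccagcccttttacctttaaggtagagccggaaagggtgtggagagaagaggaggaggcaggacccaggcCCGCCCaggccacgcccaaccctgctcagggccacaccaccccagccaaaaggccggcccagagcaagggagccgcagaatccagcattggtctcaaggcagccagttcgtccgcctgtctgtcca
Perp: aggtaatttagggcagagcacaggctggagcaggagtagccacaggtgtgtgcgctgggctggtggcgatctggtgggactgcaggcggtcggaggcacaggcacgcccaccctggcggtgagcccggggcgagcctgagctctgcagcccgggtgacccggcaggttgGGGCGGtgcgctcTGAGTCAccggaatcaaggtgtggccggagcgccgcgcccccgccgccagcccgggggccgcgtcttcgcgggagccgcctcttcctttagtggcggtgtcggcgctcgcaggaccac
Dsp: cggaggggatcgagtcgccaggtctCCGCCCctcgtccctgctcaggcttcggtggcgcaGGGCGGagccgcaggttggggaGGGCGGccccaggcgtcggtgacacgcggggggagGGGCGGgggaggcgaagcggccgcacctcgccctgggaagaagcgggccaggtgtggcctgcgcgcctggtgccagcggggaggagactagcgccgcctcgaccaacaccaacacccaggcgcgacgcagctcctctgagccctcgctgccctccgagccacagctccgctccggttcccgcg
Sfn held TGACTCA starting at base -168 from the gene start and Perp held TGAGTCA starting at base -68, while 7.33% of all 33469 promoters of this length held a match. Dsp held 4 GC boxes, Sfn 1 and Perp 1, and 33.1% of promoters held at least 1. In the promoters of Tkt and Tp63 neither motif was found. The grainyhead motif AACCGGTT, found in 0.173% of promoters, was in none of the 5. A match describes letters in a window and not a bound site.

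The 10 S codes were compared with limma's moderated F test. Nearly all probe sets differed between S codes, 92.1% of those tested, and so did the main probe sets of Aldh3a1, Tkt, Sfn, Dsp and Tp63, which is close to that background. Aldh3a1 had the largest share of its variance between S codes, 56.8%. Its mean was 13.31 ± 0.05 (SD, n = 12) under S7 and 12.98 ± 0.07 (SD, n = 12) under S5, 1.26-fold apart, and these animals did not overlap. Both codes were picked as the extremes of the 10, and the share of all probe sets without such overlap is not given here. Sfn averaged 10.49 ± 0.17 (SD, n = 12) under S7 and 10.07 ± 0.12 (SD, n = 13) under S10, 1.33-fold apart, with overlapping animals. Tkt was also highest under S7 and lowest under S10, 1.23-fold apart. The first Perp probe set missed the threshold (adjusted p = 0.078), while the second passed it (adjusted p = 1.66e-08). The actin control probe sets for the 3' and 5' ends of the transcript give a reading of RNA integrity and labelling, and the second Perp probe set had r of -0.63 with their difference, against 0.06 for the first. With these differences as covariates the second Perp probe set no longer passed (adjusted p = 0.205) and the first did (adjusted p = 0.0314).

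Sfn was the only one of the 6 genes whose level followed the L code. In limma's moderated F test with the S code as covariate, Sfn had F of 5.43 and an adjusted p of 2.51e-06, against a background of 4.58% of probe sets past the threshold. It ranked 26 of 12326 genes by p. L code means ran between 0.27 (n = 4) under L7 and -0.25 (n = 5) under L11 on the log2 scale around the S code means, a 1.43-fold difference. The 4 animals of L7 lay between 0.15 and 0.36 and the 5 of L11 between -0.36 and -0.10, without overlap. Both codes were picked as the extremes of the 22, and the share of all probe sets without such overlap is not given here. The extreme L codes of Aldh3a1 and of the second Perp probe set did not overlap either, though neither passed this F test (adjusted p = 0.436 and 0.921). The L code held 52.1% of the variance of Sfn that was left after the S code. Under the alternatives for which the F test was refitted, the adjusted p of Sfn lay between 4.39e-07 and 4.06e-06.

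**Figure D2:**
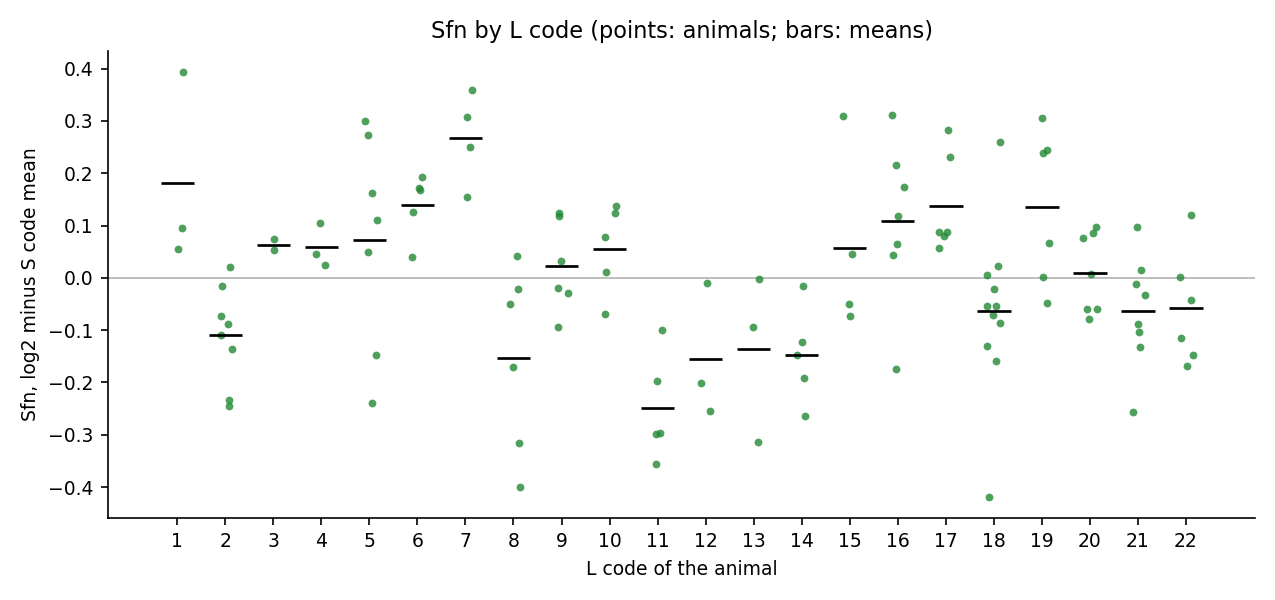
Sfn 1374806_at (log2 minus the S code mean, vertical axis) by L code (horizontal axis), with 1 point per animal and a bar at each mean. The highest mean, 0.27, is under L7 and the lowest, -0.25, under L11.

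For the other 5 genes the adjusted p of the L code in limma's moderated F test was 0.436 for Aldh3a1, 0.569 for Tkt, 0.769 for Perp, 0.534 for Dsp and 0.893 for Tp63. Of 12326 genes, each by its probe set of highest mean, 659 passed the L code test, and of all probe sets 4.58% did. Of 79 genes tested from the lists described below, 6 passed, or 7.595%. These were Grhl3, Grhl1, Cldn4, Lamb3, Aldh1a1 and Aldh1a2, and no keratin, desmosome, 14-3-3, pentose phosphate or p53 list gene was among them. The means given next are for genes chosen after their values were seen, and those of Aldh1a1 and Aldh1a2 are not given. L7 and L11 are the extreme codes of Sfn, with which the genes had r between 0.33 for Grhl1 and 0.68 for Krt14. Their means under these codes are therefore not separate evidence. Grhl3, a grainyhead-like factor of epithelial barrier formation, passed (adjusted p = 0.000914). Its means were 0.21 under L7 and -0.22 under L11. Cldn4, a tight junction claudin, also passed (adjusted p = 0.00576), with means of 0.28 under L7 and -0.13 under L11. Lamb3, a laminin chain, passed too (adjusted p = 0.00608), with means of 0.13 under L7 and -0.05 under L11. Grhl1 passed (adjusted p = 0.0102) with means that differed little between these 2 codes, 0.06 under L7 and -0.01 under L11. Jup, the plakoglobin gene, had means of 0.07 under L7 and -0.11 under L11 and did not pass (adjusted p = 0.294). Krt14, the basal cell keratin, had means of 0.23 under L7 and -0.20 under L11 and did not pass (adjusted p = 0.142). Grhl3 lies on chromosome 5, as Sfn does, 28 tested genes away from it, whereas Cldn4 lies on chromosome 12.

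None of the 9 probe sets was called in a test for the 3 levels that genotypes at 1 locus would give. In this test a model of 3 normal levels in proportions of 1:2:1 had to beat the best single distribution by a BIC difference over 10, and 0.244% of probe sets tested did so. For the 9 probe sets the difference ran between -46.1 and -8.68, so the single distribution had the lower BIC for each. The test calls only levels that lie well apart, so a smaller effect of 1 locus on these genes cannot be judged from it. The highest value under any alternative run was -0.53, for Aldh3a1 without removal of S code means.

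The 6 genes make 15 pairs, and each pair was tested in both directions over all probe sets with limma's moderated t test. In all 15 pairs r was above 0, and in 8 it passed the threshold in both fits. Dsp passed with each of the 5 other genes, while neither Aldh3a1 nor Tkt passed with Perp or with Tp63. These values are for the probe set of highest mean per gene. The second, dim Dsp probe set, highest in animal 63, gave the opposite direction, with r of -0.36 with Tp63 (adjusted p = 0.00101) and -0.24 with Aldh3a1 (adjusted p = 0.0488), and did not pass with the other 3.

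The corneal enzymes formed the closest pair. Aldh3a1 and Tkt had r of 0.64 and rho of 0.55 (permutation p = 1e-05 for each, the smallest that 100000 permutations within S codes can give; adjusted p = 1.89e-09). Within the 10 S codes r was above 0 in 10 of 10, between 0.29 and 0.90. It was 0.61 without animals 37 and 63, whose Aldh3a1 values lay farthest from the median, and 0.56 without animals 63 and 15. With the level of Krt12, the cornea-specific keratin, regressed out it was 0.56.

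Dsp and Tp63 came next, with r of 0.56 and rho of 0.46 (permutation p = 1e-05 for each, adjusted p = 2.24e-07), and with r above 0 in 10 of 10 S codes. This r was 0.50 without animals 63 and 15 and 0.53 without animal 77. Tkt and Dsp had r of 0.51 and rho of 0.40 (permutation p = 1e-05 for each, adjusted p = 3.53e-06), and 0.37 without animals 63 and 15. Aldh3a1 and Dsp had r of 0.49 and rho of 0.38 (permutation p = 1e-05 and 4e-05, adjusted p = 2.92e-05). With Krt12 regressed out that pair had r of 0.24 and no longer passed (adjusted p = 0.107).

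Perp and Tp63, a target and its known factor in mouse, had r of 0.43 and rho of 0.34 (permutation p = 3e-05 and 0.00014, adjusted p = 0.000589). It was positive in 10 of 10 S codes, and 0.36 without animals 63 and 15. Sfn and Dsp had r of 0.42 and rho of 0.38 (permutation p = 1e-05 and 6e-05, adjusted p = 0.000273), with 0.42 also without animals 63 and 15. Perp and Dsp had r of 0.38 and rho of 0.34 (permutation p = 0.00054 and 0.00032, adjusted p = 0.00419). Without animals 63 and 15 this last pair had r of 0.33 and missed the threshold (adjusted p = 0.073). Tkt and Sfn had r of 0.35 and rho of 0.36 (permutation p = 0.00019 and 8e-05, adjusted p = 0.00212), and this r was 0.05 with the first 5 principal components of all probe sets removed (adjusted p = 0.882).

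The same removal ended the call for Perp and Tp63 (r of 0.27), Sfn and Dsp (0.24) and Perp and Dsp (0.28), and the other 4 pairs passed. For the 7 pairs after Aldh3a1 and Tkt, r lay between 0.31 and 0.48 without the pair of animals most distant from the median of the first gene. It was above 0 in 10 of 10 S codes for Aldh3a1 and Dsp, and in 9 of 10 for Tkt and Sfn, Tkt and Dsp, Sfn and Dsp, and Perp and Dsp.

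The 7 other pairs had r between 0.03 for Tkt with Perp and 0.18 for Aldh3a1 with Sfn, and none passed. Tp63 and Tkt had r of 0.13 and rho of -0.02, and 0.01 without animals 63 and 15. Sfn and Perp, the 2 genes with an AP-1 match in the promoters above, had r of 0.16 and rho of 0.14 (permutation p = 0.0943 and 0.142). The second Perp probe set passed with Tkt (r of 0.51), Sfn (0.44) and Aldh3a1 (0.35), with which the first did not pass, and also with Dsp (0.41) and Tp63 (0.28), and it is the probe set that moved with the actin control.

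**Figure D3:**
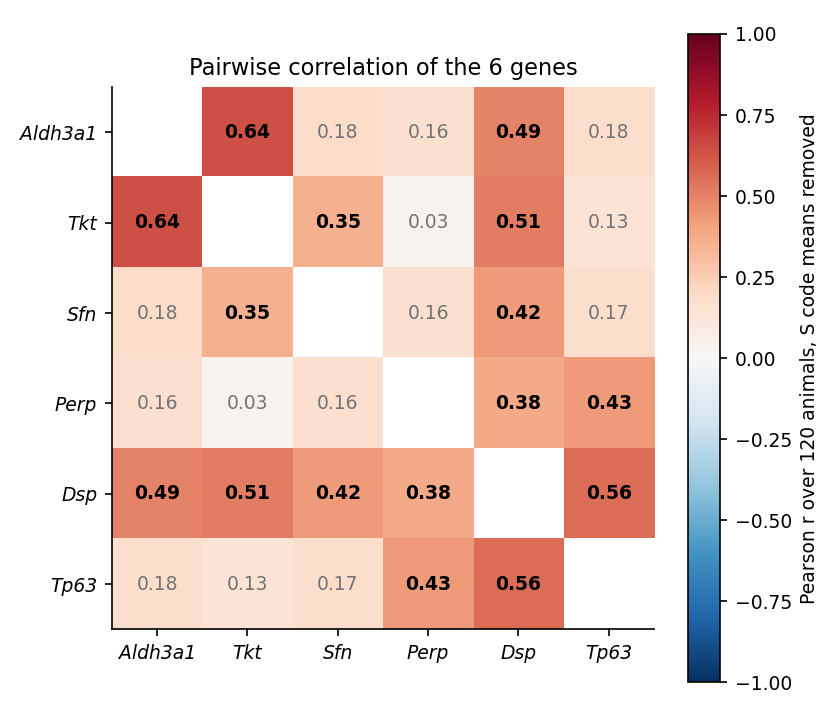
Pearson r of each pair of the 6 genes over 120 animals after removal of S code means, 1 probe set of highest mean per gene. Bold values are the 8 pairs past the threshold in both fits, led by Aldh3a1 with Tkt at 0.64.

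Each gene was then set against all other genes. The share of probe sets past the threshold was large for each and rested in part on few arrays. Positive relations were called for 15.6% of probe sets with Aldh3a1, 26.1% with Tkt, 16.1% with Sfn, 12.6% with Perp, 18.2% with Dsp and 30.6% with Tp63. Negative relations were called for 3.71%, 16.9%, 10.1%, 2.8%, 5.9% and 11.5% in the same order of genes, so that the shares in either direction were 19.3%, 43%, 26.2%, 15.4%, 24.1% and 42.1%. With animals 63 and 15 left out, the positive and negative shares were 7.6% and 5.73% for Aldh3a1, 25.7% and 29% for Tkt and 17.7% and 20.4% for Sfn. They were 0.523% and 0.133% for Perp, 1.74% and 0.33% for Dsp and 11.3% and 3.74% for Tp63. The counts behind these shares were 153, against 3588 with all arrays, for Perp, 484 against 5627 for Dsp and 3498 against 9831 for Tp63. Main counts of list members below are therefore given also without those animals.

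Aldh3a1 was most like Krt12, which builds the intermediate filaments of corneal epithelial cells, with r of 0.69 and rho of 0.65 (adjusted p = 2.97e-09). Its r was 0.65 without animals 63 and 15. Tkt came second, then Nedd4, a ubiquitin ligase (r of 0.61), Eef1g, a subunit of translation elongation factor 1 (0.60), and Aqp5, a water channel of the corneal epithelium and of glands (0.57). The most negative were Smad9 (-0.50), Pf4 (-0.48), which encodes platelet factor 4, and Bcl2l15 (-0.46). Of 11 other aldehyde dehydrogenase genes tested, 3 co-varied positively and 1 negatively with Aldh3a1, against 15.6% and 3.71% of all probe sets. Aldh2, the mitochondrial enzyme, had r of 0.34, Aldh4a1 0.30 and Aldh3a2, the fatty aldehyde dehydrogenase next to Aldh3a1 on chromosome 10, 0.29, while Aldh3b1 had -0.30. The median r of these 11 genes was 0.07, against 0.04 for all probe sets. Aldh2 (r of 0.26) and Aldh3b1 (-0.28) also passed without animals 63 and 15.

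Aldh3a1 also moved with lens genes. Of 8 lens markers, 7 co-varied positively with it, led by Bfsp2, a beaded filament protein (r of 0.55), and Crybb2, a beta crystallin (0.55), and 6 of 8 did so without animals 63 and 15, when the positive share of all probe sets was 7.6%. The counts for lens markers were 4 of 8 for Tkt, and 3 without those animals, 2 of 8 for Sfn in both fits, and 0 of 8 for Perp, Dsp and Tp63, where 1, 2 and 0 had an unadjusted p under 0.05. The largest lens values of Tkt, r of 0.70 with Lim2 and 0.69 with Bfsp2, were above any of Aldh3a1. Without animals 63 and 15 they were 0.56 and 0.61. Of the 11 ocular surface keratins tested, only Krt12 and Krt5 passed with Aldh3a1.

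Tkt was most like Plxnb2, a semaphorin receptor, with r of 0.82 and rho of 0.71 (adjusted p = 7.69e-23). Oaz1, an inhibitor of ornithine decarboxylase (r of 0.81), Rplp0, a ribosomal protein (0.80), Ap1b1, a clathrin adaptor subunit (0.80), and Psap, the precursor of saposins (0.79), followed. The most negative were Pstk (-0.59), Pf4 (-0.56) and Tmem135 (-0.56). The actin end difference had r of -0.40 with Tkt, against a median absolute r of 0.303 over all probe sets tested, and with the actin and GAPDH end differences as covariates 6935 probe sets passed with Tkt in place of 10032, of which 1504 in place of 3936 were negative. With array medians subtracted the total was 9984, of which 5254 were negative.

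Some markers of other cell types moved with Tkt, with which 26.1% of all probe sets passed positively and 16.9% negatively. Without animals 63 and 15 these shares were 25.7% and 29%. Of 5 rod markers, 4 co-varied positively, Rcvrn (r of 0.50), Gnat1 (0.44), Pde6b (0.34) and Sag (0.24), and without animals 63 and 15 Rcvrn and Gnat1 did while Cnga1 passed negatively (-0.25). Of 6 macrophage markers, Cd163 (-0.55), Aif1 (-0.43) and Csf1r (-0.30) co-varied negatively and C1qa (0.36) positively, and all 4 passed without those animals too, when C1qb (0.25) joined C1qa. Of 7 corneal stroma markers, 2 passed in each direction, and 1 positively and 4 negatively without the animals. Among corneal epithelium markers, Krt12 (0.38), Krt5 (0.38), Krt14 (0.32) and S100a14 (0.27) passed positively and the others did not. Without animals 63 and 15, Krt12, Krt5 and Krt14 still passed. Some markers of corneal endothelium, melanocytes, muscle, gland and conjunctiva passed as well with all arrays and are not detailed here. The part of these cell types in the relations of Tkt was not tested.

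With Tkt, 26.1% of all probe sets co-varied positively and 16.9% negatively. In the pentose phosphate pathway, 3 of 6 genes tested did so positively and none negatively. These were Pgd, which makes ribulose 5-phosphate in the oxidative branch (r of 0.67), Pgls, the lactonase before it (0.51), and Taldo1, the transaldolase that works with transketolase (0.36). Pgd (0.64) and Pgls (0.50) also passed without animals 63 and 15, and Taldo1 (0.20) did not. Rpe and Rpia, the epimerase and isomerase that supply the substrates of transketolase, then co-varied negatively (-0.50 and -0.41), whereas with all arrays neither passed (-0.20 and -0.17). Without animals 63 and 15, 25.7% of all probe sets passed positively and 29% negatively. Taldo1 had a larger r with Dsp (0.55, and 0.44 without animals 63 and 15) than with Tkt.

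**Figure D4:**
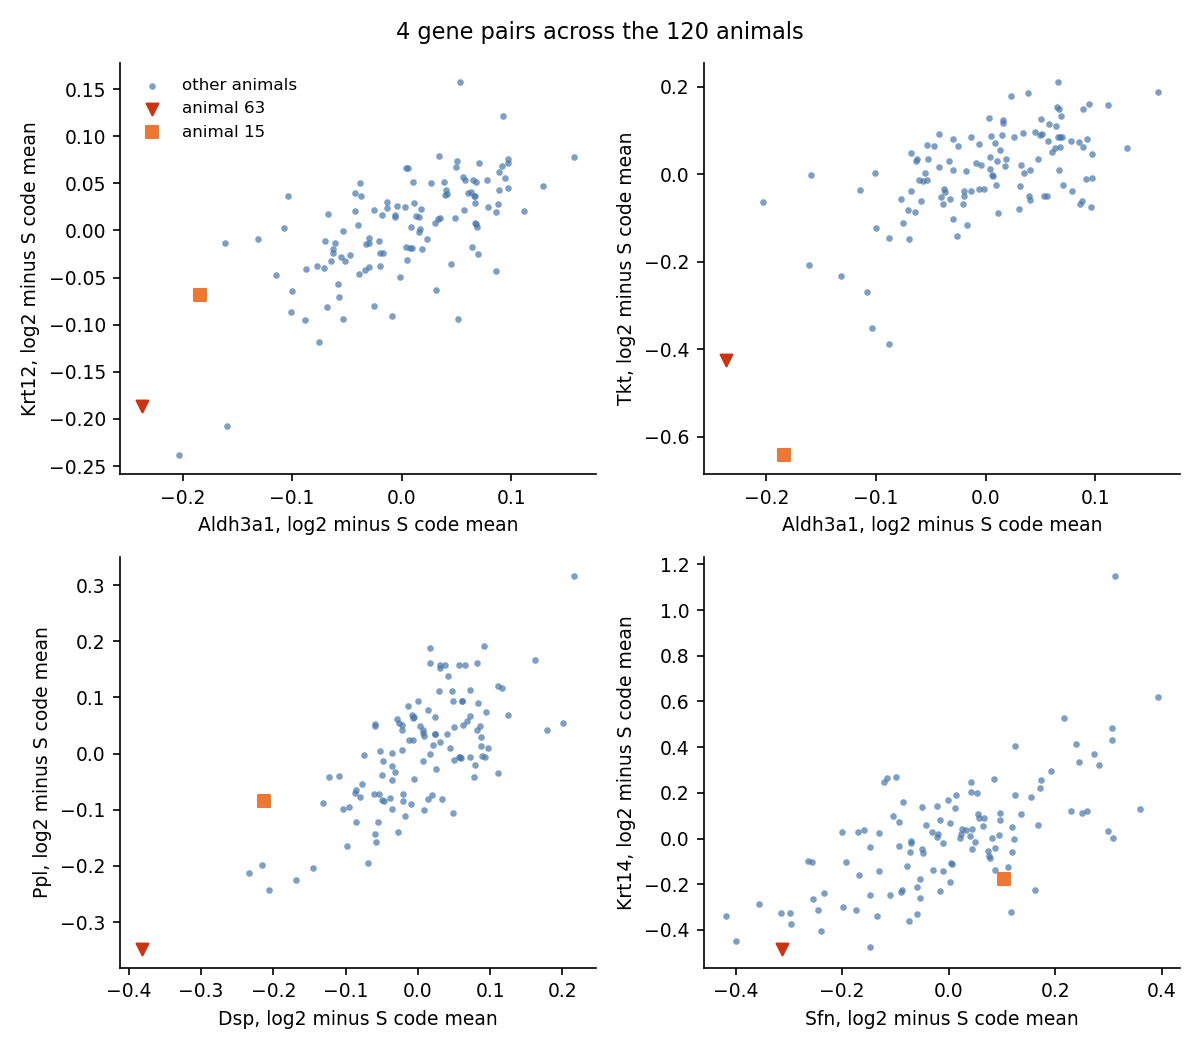
Aldh3a1 against Krt12, Aldh3a1 against Tkt, Dsp against Ppl and Sfn against Krt14, each on the log2 scale minus the S code mean, with 1 point per animal and animals 63 and 15 marked. All 4 pairs rise together, with r of 0.69, 0.64, 0.73 and 0.68 over the 120 animals.

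Sfn was most like Krt14, with r of 0.68 and rho of 0.63 (adjusted p = 2.15e-12), and the value was the same to 2 decimals without animals 63 and 15 and without animal 77. Eif6, which keeps ribosomal subunits apart (0.68), Cldn4 (0.68), Cdk2ap2 (0.67) and Lypd3, a surface protein of stratified epithelia (0.67), followed. The most negative were Tusc3 (-0.54), Hey1, a Notch target (-0.53), and Ntng1 (-0.52). Of the 11 keratins, 7 co-varied positively with Sfn, with and without animals 63 and 15, including Krt4 (r of 0.54) and Krt13 (0.53), the pair of suprabasal mucosal keratins. The cornea-specific Krt12 had r of 0.14 and Krt5 0.18, and neither passed. Of the 8 desmosome genes tested, 6 co-varied positively with Sfn, again with and without those animals, led by Jup, which encodes plakoglobin (r of 0.66). The positive share of all probe sets with Sfn was 16.1%, and 17.7% without animals 63 and 15.

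None of the 6 other 14-3-3 genes passed limma's moderated t test with Sfn over 120 animals, although 3 had an unadjusted p under 0.05, and r lay between -0.24 for Ywhab and 0.13 for Ywhaz, with a median of -0.11 against 0.01 for all probe sets. When animals 63 and 15 were left out, Ywhab (-0.38), Ywhah (-0.36) and Ywhag (-0.32) co-varied negatively with Sfn, 3 of 6, when the negative share of all probe sets was 20.4%. Of 9 p53 family members and targets tested, Phlda3, an inhibitor of Akt (r of 0.65), Gadd45a (0.32) and Bbc3, a cell death gene (0.30), co-varied positively and Ccng1 (-0.29) negatively. Of all probe sets, 16.1% passed positively with Sfn and 10.1% negatively. Without animals 63 and 15 these 4 genes passed again, and Sesn1 (-0.39, against -0.17 with all arrays) passed negatively. The shares of all probe sets were then 17.7% and 20.4%. Cdkn1a, the cell cycle inhibitor through which p53 acts in many cells, had r of 0.09 and did not pass. Pax6, the transcription factor of eye and corneal identity, co-varied negatively with Sfn (r of -0.24, and -0.40 without animals 63 and 15).

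Perp was most like Cd2ap, an adaptor that links membrane proteins to actin, with r of 0.67 and rho of 0.54 (adjusted p = 3.36e-11), and 0.59 without animals 63 and 15. Gng12, a G protein subunit (0.62), Slmap (0.61), Slc39a8, a zinc transporter (0.59), and Sarnp (0.57) followed. None of these 5 was a junction gene of the lists used. Of 10 genes of other epithelial junctions, 4 co-varied positively with Perp, namely Gjb2, a connexin (r of 0.40), Epcam (0.37), Cdh1, which encodes E-cadherin (0.36), and Ocln, which encodes occludin (0.32). Of the 8 desmosome genes, 5 did. Once animals 63 and 15 were left out, none of the 10 and none of the 8 passed limma's moderated t test, at a positive share of 0.523% over all probe sets, and 5 of each had an unadjusted p under 0.05. The median r was then 0.19 for the 10 and 0.22 for the 8, against 0.01 for all probe sets. Itga6, a hemidesmosome gene chosen after its values were seen, had r of 0.52 with Perp, and 0.43 without those animals. It passed in both fits, while the other hemidesmosome genes tested did not pass without those animals. The most negative genes with Perp were Spetex2l1 (-0.41), Sprr1b (-0.39) and Ssh1 (-0.38), of which Sprr1b had r of -0.17 without animals 63 and 15.

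Dsp was most like Ppl, which encodes periplakin, a plakin that binds keratin filaments at desmosomes and in the cornified envelope. Its r was 0.73 and rho 0.65 (adjusted p = 4.41e-14), and r was 0.70 without animals 63 and 15. Krt6c (0.70), Rab11a, a recycling endosome GTPase (0.64), Pinlyp (0.63) and Krt5, the basal keratin (0.63), followed. The Krt6c probe set (1371757_s_at) is of a type whose probes can match several transcripts, so keratin 6 paralogs cannot be told apart in it. The most negative were Runx3 (-0.49), Fkbp1b (-0.48) and Tafa5 (-0.47), which without animals 63 and 15 had r between -0.29 and -0.25 and did not pass.

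The desmosome and keratin genes stayed with Dsp when those animals were left out. Of 8 desmosome genes tested, 7 co-varied positively with Dsp over all arrays and 6 without animals 63 and 15, when the positive share of all probe sets was 1.74%. These 6 were Ppl, Pkp1, which encodes plakophilin 1 (r of 0.59, and 0.55 without the animals), Dsc2, a desmocollin (0.52 and 0.43), Jup (0.42 and 0.42), Evpl, which encodes envoplakin (0.40 and 0.34), and Pkp3 (0.39 and 0.32). Dsg2, a desmoglein, had 0.36 and 0.31 and just missed the threshold without them (adjusted p = 0.0506). Pkp2, the plakophilin of heart and simple epithelia, had r of 0.14 and did not pass in either fit. The median r was 0.41, against 0.08 for all probe sets. Of 11 keratins tested, 8 co-varied positively with Dsp in both fits, among them Krt5 (0.63 and 0.55), Krt13 (0.52 and 0.51), Krt14 (0.52 and 0.50) and Krt12 (0.50 and 0.42). The 3 that did not were Krt18, Krt19 and Krt7, keratins of simple epithelia, with r between 0.11 and 0.13. Krt8, the partner of Krt18, passed (0.38 and 0.31).

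Some markers of other surface tissues moved with Dsp too. With Dsp, 18.2% of all probe sets passed positively, and 1.74% without animals 63 and 15. Of 8 corneal epithelium markers, 4 of them keratins already counted, 7 co-varied positively with Dsp, and 5 without animals 63 and 15. Of 3 eyelid skin markers, 3 did so, and 2 without them. Of 9 conjunctiva and goblet cell markers, only Muc4 (r of 0.57), Krt13 and Krt4 (0.39) passed, in both fits, while Krt19, Muc5ac, Agr2, Spdef, Tff1 and Tff3 had r between -0.17 and 0.12 and did not. The part of the amount of surface epithelium in the sample was not tested.

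**Figure D5:**
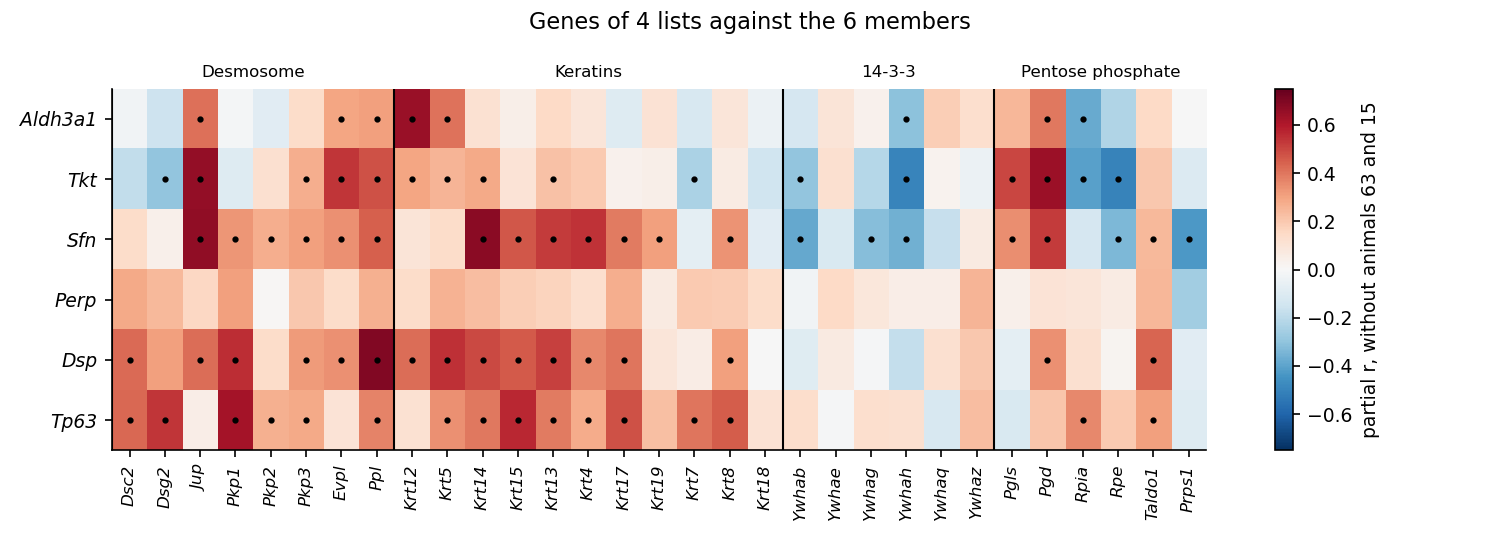
Partial r with each of the 6 genes (rows) for 31 genes of 4 lists (columns) without animals 63 and 15 and with the S code as covariate, where dots mark relations past the threshold. The row of Perp has no dot, and the rows of Dsp and Tp63 each have 6 dots among the 8 desmosome genes and 8 among the 11 keratins.

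Tp63 was most like Pkp1, with r of 0.67 and rho of 0.56 (adjusted p = 2.36e-11), and 0.63 without animals 63 and 15. Il6r, an interleukin 6 receptor subunit (0.65), Net1, an exchange factor for RhoA (0.65), Mpzl2, a cell adhesion protein (0.64), and Nuak2, a kinase (0.64), followed. The most negative were Crb2, an apical polarity protein of the retina (-0.51), Slc6a11 (-0.50) and Csf1 (-0.49). Positive relations with Tp63 were called for 30.6% of all probe sets, and for 11.3% without animals 63 and 15. Of the 8 desmosome genes, 6 co-varied positively with Tp63 in both fits, with Dsg2 (r of 0.58) and Dsc2 (0.52) after Pkp1. Jup and Evpl, at 0.09 and 0.16, did not pass. Of the 11 keratins, 9 passed and 8 without animals 63 and 15, with Krt15, a keratin of limbal and basal cells, highest at 0.59. Krt12 had r of 0.21 and did not pass.

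With Tp63, 30.6% of all probe sets passed positively, and 11.3% without animals 63 and 15. Of 8 hemidesmosome genes, 5 co-varied positively with Tp63. Without those animals the 2 that passed were Itga6 (r of 0.44, and 0.35 without them) and Col17a1 (0.43 and 0.32), which hold basal cells to the basement membrane. Of 10 regulators of stratified epithelia, 5 passed with all arrays. Klf5, a factor of proliferating basal cells (0.62 and 0.57), and Esrp1, an epithelial splicing regulator (0.47 and 0.38), also passed without those animals. Grhl3, at 0.06, and Pax6, at 0.14, did not pass with Tp63. The 3 eyelid skin markers all co-varied positively with Tp63, in both fits, and 6 of 8 corneal epithelium markers did, 5 without animals 63 and 15. Of the 9 conjunctiva and goblet cell markers, 7 passed positively with Tp63, and 6 without those animals.

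The 5 nearest genes of each of the 6 shared no gene between any pair of lists. The desmosome genes Jup and Dsg2, chosen after their values were seen, stood in opposite orders. Jup had r of 0.66 with Sfn, 0.42 with Dsp and 0.09 with Tp63, while Dsg2 had 0.11 with Sfn, 0.36 with Dsp and 0.58 with Tp63. Whether the r of a gene with one of the 6 differs from its r with another was not tested.

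Of the 10 tested genes nearest to each of the 6 on its chromosome, 5 on either side in the gene order of GRCr8, between 2 and 5 passed with it, to be read against the shares of all probe sets given above. Tp63 had r of 0.48 with its immediate neighbour Cldn1, a tight junction claudin, and 0.50 with Bcl6, 3 genes away. Sfn had r of 0.48 with Tent5b, 5 genes away, and -0.37 with Hmgn2, 3 genes away. Tkt had r of -0.42 with Sfmbt1, 2 genes away, and Dsp had 0.40 with Txndc5, 3 genes away.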

How the data were processed

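The values deposited by the authors are on the log2 scale and come from RMA (robust multi-array averaging), which the submitters' processing notes name without a version; array annotation and genome build are not given in the sources used here. RMA evens out the distributions of the arrays, so a change shared by most genes can be hidden, and a probe that binds 1 strain's transcript poorly can look like a level. Per the labels' protocols, RNA from both eyes was extracted with TRIzol and RNeasy, and a one-cycle kit was used for labelling.

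Names come from the platform annotation, brought up to date through Entrez numbers in a RefSeq table of GRCr8. Of 31042, 20826 had 1 symbol, 436 several and 9780 none. Those with a mean of at least 4.283, the 25th percentile of all values, were tested (23326 probe sets, 12326 genes, each gene by its probe set of highest mean). Tests used limma 3.58.1 in R 4.3.3, with Benjamini-Hochberg adjustment over all probe sets and a threshold of 0.05: a moderated F test for the codes and a moderated t test of each probe set on a member's level with the S code as covariate, for which r is the partial correlation. Single pairs also had 100000 two-sided permutations within S codes. All were tried on simulated data.

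The members and lists were chosen with earlier results of these data known. The genes named are, for each member, the 5 of highest and 3 of lowest r, the leading genes of its lists and its neighbours. List genes with no probe set of their own were not analysed here. The 120 arrays limit the precision, and as each animal has 1 array, p-values cover animal and array differences jointly. Alternatives were no removal of S code means, arrays left out (rescanned, 63 and 15, each S code), array medians subtracted, L code effects, 5 principal components, the end differences of the actin and GAPDH controls or Krt12 removed, ranks, other thresholds and no filter. Scaling, ranks, Krt12 and S codes left out for the counts of probe sets, leaving out animal 77, leaving out animals 63 and 15 for the S code test, the nearest genes after component removal and the chromosome shares were chosen after seeing the data.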

Additional observations from a re-analysis of the deposited data

How the results depend on the processing

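No paired analysis was possible because the labels give 1 group only. Of 660 alternative values for 81 results, 595 kept their side of the threshold or stayed within 1.5 times, 10 lost the threshold, 3 gained it and 52 moved further. A change of sign was looked for only in gene pairs past the threshold in the main or the alternative fit, and none was found. Pairs below it could change sign, as Tkt and Perp did (0.034, and down to -0.089 with 1 S code left out). Where a value changed, the cause was not tested. With 1 S code left out at a time, the pairs past the threshold ran from 0.589 to 0.669 for Aldh3a1 and Tkt, 0.43 to 0.534 for Aldh3a1 and Dsp, 0.302 to 0.451 for Tkt and Sfn, 0.471 to 0.556 for Tkt and Dsp, 0.375 to 0.458 for Sfn and Dsp, 0.273 to 0.432 for Perp and Dsp, 0.381 to 0.456 for Perp and Tp63 and 0.517 to 0.575 for Dsp and Tp63, and only Perp and Dsp, without S code 3, missed it.

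Without removal of S code means, Aldh3a1 and Sfn passed (r of 0.40) and Aldh3a1 and Dsp did not (0.25); with Krt12 regressed out Aldh3a1 and Dsp had 0.24. With 5 principal components removed, r was 0.049 for Tkt and Sfn, 0.24 for Sfn and Dsp, 0.28 for Perp and Dsp and 0.27 for Perp and Tp63, and none of these passed. Perp and Dsp also missed at 0.28 without the 3 rescanned arrays and at 0.33 without animals 63 and 15.

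Counts of co-varying probe sets, 4510 for Aldh3a1, 10032 for Tkt, 6106 for Sfn, 3588 for Perp, 5627 for Dsp and 9831 for Tp63, depended most on the setting. With 5 principal components removed they were 438, 2234, 317, 184, 751 and 524. Without removal of S code means they were 10851 for Aldh3a1, 10895 for Sfn, 6480 for Perp and 2094 for Dsp. Without the rescanned arrays they were 318 for Perp, 1108 for Dsp and 2574 for Tp63, and without animals 63 and 15 they were 153, 484 and 3498. At an adjusted p of 0.01 they were 2463 for Aldh3a1, 3155 for Sfn, 928 for Perp, 2874 for Dsp and 6194 for Tp63. L code removal gave 5764 for Perp, and removal of the actin and GAPDH differences gave 3260 for Sfn. In settings added for these counts after seeing the data, array medians subtracted gave 917 for Aldh3a1 and 2070 for Dsp, ranks gave 2126 for Aldh3a1, 217 for Perp and 554 for Dsp, and Krt12 regressed out gave 2916 for Aldh3a1 and 3541 for Dsp. With 1 S code left out at a time the share of probe sets past the threshold ran from 12% to 21% for Aldh3a1, 33.5% to 49.4% for Tkt, 15.6% to 30.4% for Sfn, 0.437% to 26.7% for Perp, 6.18% to 29.6% for Dsp and 18.2% to 49.7% for Tp63. The lowest of Perp, Dsp and Tp63 were without S code 3, which holds animal 63.

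Perp passed the S code test with array medians subtracted (adjusted p = 0.0257) and with the actin and GAPDH covariates (0.0314), where its second probe set did not (0.205). The SD was 0.109 for Aldh3a1 without removal of S code means, and 0.0807 for Tkt and 0.108 for the second Perp probe set with components removed. Between the 6th lowest and the 6th highest animal the range was 1.40-fold for Tp63 and 1.38-fold for the second Dsp probe set, which had 1.64-fold with components removed and 1.68-fold without animals 63 and 15. Without those animals the list counts were 0 for other junctions with Perp, 2 for hemidesmosomes and 2 for regulators with Tp63, 3 for 14-3-3 genes with Sfn and 2 for aldehyde dehydrogenases with Aldh3a1. With the mean over a gene's probe sets they were 3 for hemidesmosomes, 2 for 14-3-3 genes and 5 for the pentose phosphate pathway with Tkt.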

Other observations

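With the first 5 principal components of all probe sets also removed (a choice made after seeing the data), the first 5 genes changed in part for each of the 6. Aldh3a1 remained closest to Krt12 (r of 0.67), followed by Krt5 (0.57), which had not been among its first 5, Tkt (0.55), Tmsb4x (0.52) and the lens crystallin gene Cryba2 (0.50), while Nedd4, Eef1g and Aqp5 left them. Tkt remained closest to Plxnb2 (0.66), followed by Krt5 (0.63), Aqp5 (0.62), Vcp (0.62) and Sdc1, which encodes the epithelial proteoglycan syndecan 1 (0.59), while Oaz1, Rplp0, Ap1b1 and Psap left the first 5. Sfn was then closest to Cdk2ap2 (0.58) and Grhl3 (0.57), and Dsp to Ppl (0.65), Krt6c (0.61), Krt5 (0.59) and Pkp1 (0.56). Tp63 was closest to Txnip (0.57), with Fkbp5 (0.55) and Arrdc4 (0.53) among its first 5, and Fkbp5 is known as a glucocorticoid target. Perp remained closest to Cd2ap, at 0.73.

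Another probe set of Krt6c (1373349_at) had the F2 mixture shape, with a BIC difference of 91.1 and an SD of 1.82 on the log2 scale. Its r was 0.34 with Tp63 (adjusted p = 0.00131) and 0.26 with Dsp (adjusted p = 0.0262), while the Krt6c probe set of highest mean had 0.32 with Tp63 and 0.70 with Dsp. On chromosome 5, a Ythdf2 probe set with a mixture call (1371960_at, BIC difference of 16.1) had r of 0.22 with Sfn and did not pass (adjusted p = 0.0574), while a second Ythdf2 probe set (1375695_at), with no mixture call, had 0.44 (adjusted p = 4.86e-05). Bphl, a gene of chromosome 17 with a mixture call (BIC difference of 13.7), had r of 0.28 with Dsp (adjusted p = 0.0146). It was the 1 of 8 probe sets looked at on chromosome 17, from 5 genes, that passed with Dsp, against 24.1% of all probe sets. On chromosome 5 the second Ythdf2 probe set was the 1 of 5 that passed with Sfn, against 26.2% of all probe sets. On chromosome 11 none of 5 passed limma's moderated t test with Tp63, against 42.1%, the smallest adjusted p being 0.0986.

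The share of genes past the threshold with each of the 6 was close on its own chromosome to that over all genes. It was 24.8% of 800 genes for Sfn, against 26.1% of all 12325 genes, and 47.4% of 327 for Tp63, against 45.8%. The widest gaps were for Tkt, with 45.7% of 363 genes on chromosome 16, against 40.8% of all genes, and for Aldh3a1, with 22.4% of 1079 genes on chromosome 10, against 17.5%.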
